A study of Mus musculus with 16 samples.

Results

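The genes described here act on high density lipoprotein (HDL) after it is secreted, or set the activity of lipoprotein lipase, the enzyme that removes triglyceride from circulating particles. They are 8 genes chosen by symbol, Pltp, Scarb1, Lcat, Lipc, Apom, Apoc2, Angptl4 and Angptl8. All 8 were found among the 12617 genes tested, and the filter on low values removed no gene. Messenger RNA was sequenced from mouse livers in 2 groups, 8 libraries of control CRISPR mice and 8 of Cyp7a1 CRISPR mice, and both groups ate a Western diet for 8 weeks. CRISPR nucleases cut DNA at a site chosen by a guide RNA, and the targeted gene, Cyp7a1, makes the enzyme that sets the pace of bile acid synthesis from cholesterol. The labels used here name no strain, sex, age, guide, delivery or edited cell type. They also do not tie libraries to single animals, and the p-values then measure only the spread between these samples, which may be technical. Below, each library is called a liver, without showing that it came from a separate animal.

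HDL carries cholesterol from tissues to the liver. In plasma, phospholipid transfer protein (Pltp) moves phospholipid onto HDL, lecithin-cholesterol acyltransferase (Lcat) esterifies its cholesterol, and hepatic lipase (Lipc) hydrolyses its lipids at the liver surface, where scavenger receptor class B type 1 (Scarb1) takes up cholesteryl ester without taking in the particle. Apolipoprotein M (Apom) carries sphingosine 1-phosphate on HDL. Lipoprotein lipase needs apolipoprotein C-II (Apoc2) as its cofactor and is inhibited by angiopoietin-like proteins, of which Angptl4 acts largely within the tissue that makes it and Angptl8 is made by the liver after feeding.

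Values are normalized counts, read counts per gene scaled by 1 factor per library. Depth, as recovered from these values, was 13.8 to 27.4 M (mega) reads per library, and the labels name no batch. Cyp7a1 itself was no lower in the group that carries its name, at 3587 ± 1252 in controls against 4702 ± 1126 in the libraries labelled Cyp7a1 (SD, n = 8 each; limma adjusted p = 0.227). A count per gene does not show whether its sequence was edited, so the second group is named by its label and every direction below rests on the labels. All 12 hepatocyte markers were detected in each library, with summed levels of 1862751 to 2680281 in controls and 1940828 to 2729274 in the Cyp7a1-labelled group, and 1 of the 12, the tyrosine-degrading enzyme Tat, was higher (log2 fold change 0.84, adjusted p = 0.0466).

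Of the 8 genes, 1 was higher and 2 were lower in the Cyp7a1-labelled livers, and 5 did not pass the test (limma, Benjamini-Hochberg adjusted p under 0.05 over all genes). Among all 12617 genes the share that passed was 6.12%, with 3.07% higher and 3.05% lower. At an unadjusted p under 0.05 stood 4 of the 8 and 20.5% of all genes. On recovered whole reads 4 of the 8 passed in edgeR and in DESeq2, with Lipc added, beside 6.02% and 8.88% of all genes. Pltp rose 2.13-fold, Scarb1 fell by 27.1% and Angptl8 fell by 40.2%. The median log2 fold change of the 8 was -0.04, beside 0.0034 for all genes tested. For 0 of the 8 genes did the groups lie fully apart, which held for 1.04% of all genes. In bulk tissue, fewer cells of a type and less RNA per cell cannot be told apart.

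**Figure D1:**
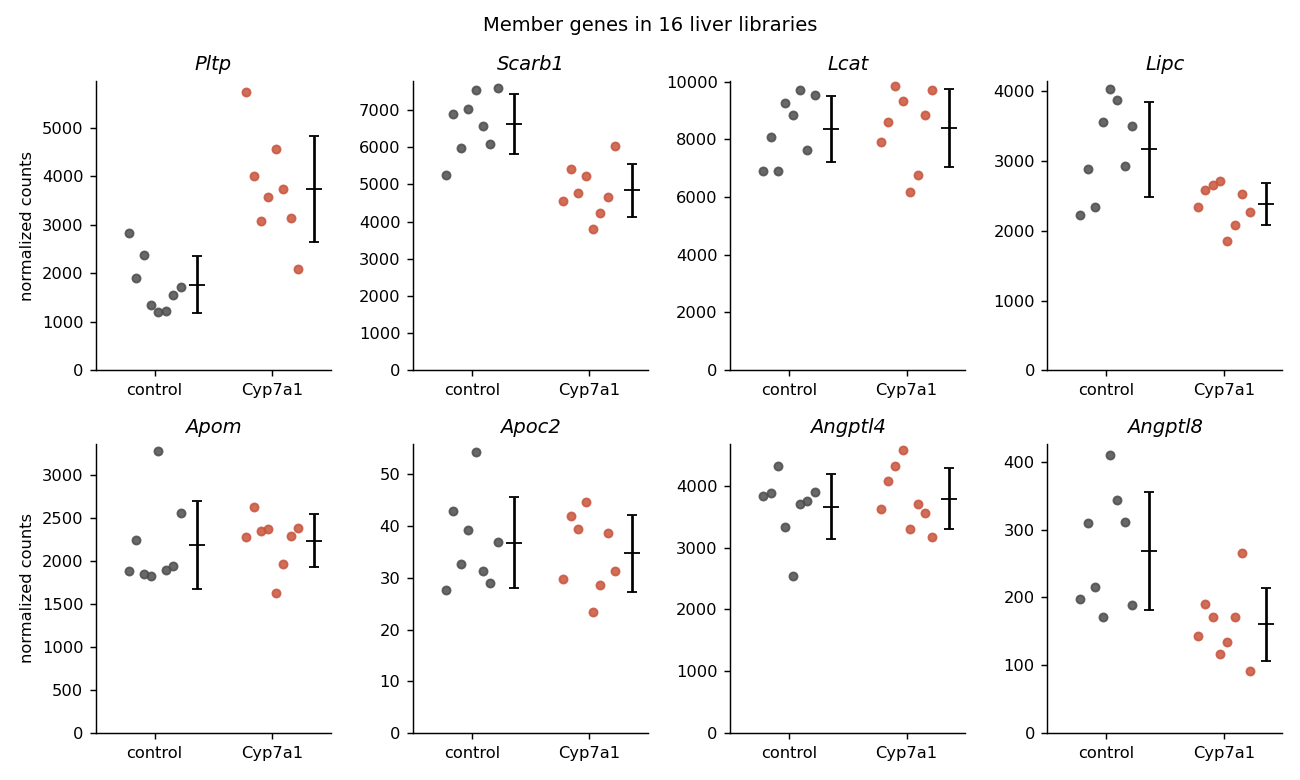
Normalized counts (vertical axes, from 0) of the 8 genes in each of 16 liver libraries, 8 control and 8 Cyp7a1-labelled, with the mean and SD of each group beside the points. Pltp is above the highest control in 7 of 8 Cyp7a1-labelled livers and Scarb1 below the lowest control in 6 of 8, while Lcat, Apom, Apoc2 and Angptl4 cover similar ranges in both groups.

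Promoter windows from RefSeq (GRCm38.p6, 250 bases before to 50 after the annotated start) were matched for 6 of the 8 genes by symbol, in 7 windows since Lipc has a pair of starts. Scarb1 and Angptl4 had no window. The windows of Pltp and Angptl8 are shown because these genes passed the test in opposite directions. Pltp lies at chr2:164857659-164857958 on the minus strand and Angptl8 at chr9:21835260-21835559 on the plus strand. Both are written 5′ to 3′ in lower case, with capitals at the motif matches listed after them.
Pltp: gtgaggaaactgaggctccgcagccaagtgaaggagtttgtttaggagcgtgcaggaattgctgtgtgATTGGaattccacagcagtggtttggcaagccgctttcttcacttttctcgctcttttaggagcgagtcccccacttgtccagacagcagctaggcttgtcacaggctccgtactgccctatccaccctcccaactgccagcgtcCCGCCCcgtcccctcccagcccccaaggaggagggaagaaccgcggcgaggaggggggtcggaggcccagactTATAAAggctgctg
Angptl8: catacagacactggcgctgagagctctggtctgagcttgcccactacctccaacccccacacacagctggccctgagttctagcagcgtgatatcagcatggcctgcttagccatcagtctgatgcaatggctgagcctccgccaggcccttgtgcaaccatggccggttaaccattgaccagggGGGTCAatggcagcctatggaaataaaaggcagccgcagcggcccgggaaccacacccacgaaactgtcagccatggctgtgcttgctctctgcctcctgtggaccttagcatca
The motifs searched, on both strands, were the bile acid receptor FXR's inverted repeat AGGTCANTGACCT, the oxysterol receptor LXR's direct repeat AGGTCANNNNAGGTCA, the half-site AGGTCA that both repeats contain, its variant GGGTCA, the E-box CACGTG, the sterol regulatory element core CACCCCAC, the GC box GGGCGG, the TATA box TATAAA and the CCAAT box CCAAT.

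In Pltp a CCAAT box began 182 bases before the start on the reverse strand, a GC box 37 bases before it on the reverse strand, and TATAAA at base 37 of the transcript as annotated. Angptl8 had 1 match, GGGTCA, 65 bases before the start. The CCAAT box was found in 37.4% of 32851 promoter windows, the GC box in 35.7%, TATAAA in 13.6% and GGGTCA in 13.7%, so each of these motifs is common. The FXR repeat matched 0 of the 7 windows and 3 of all windows, and the LXR repeat 0 of the 7 and 5 of all. The E-box and the sterol element core were likewise not in the 7 windows and occurred in 7.15% and 2.87% of all. AGGTCA, in 16.3% of all windows, was found in those of Apoc2 and Lipc, and GGGTCA also in those of Apom and Lipc. A match describes the letters in these windows and does not show binding. Both repeats were searched as exact letters and are so rare over all windows that 0 of the 7 is no result about these genes.

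Pltp (ENSMUSG00000017754) lies on chromosome 2 at 164839518 to 164857711, minus strand (GENCODE M21, GRCm38, the mm10 build). In control livers it ran from 1197 to 2831 normalized counts with a median of 1635, and in Cyp7a1-labelled livers from 2083 to 5732 with a median of 3656. The groups overlapped through Cyp7a1 36 alone, at 2083, while the other 7 lay at 3078 or more, above the highest control. The log2 fold change was 1.09 ± 0.20 (SE), a 2.13-fold rise with a 95% interval of 1.60 to 2.84 (limma adjusted p = 0.00374). Pltp varied widely within both groups, with an SD of 0.45 on the log2 scale in controls and 0.43 in the Cyp7a1-labelled livers, where the median gene had 0.17 and 0.16.

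Of Pltp's 2562 exon bases, 495 (19.3%) lie opposite exons of Ctsa, the lysosomal protective protein cathepsin A. The strand setting of the counting is not given, so reads from the shared bases cannot be told apart. Ctsa stood at 4298 ± 622 in control and at 5258 ± 382 in Cyp7a1-labelled livers (normalized counts, SD, n = 8 each), a log2 fold change of 0.30 ± 0.08 (SE, limma adjusted p = 0.0325). Pltp went from 1766 ± 581 to 3738 ± 1088 in the same livers, and the part of shared reads in either difference was not tested.

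Within the groups, the genes whose profiles were most like Pltp were Impa2, an inositol monophosphatase, Neurl2, a neuralized family ubiquitin ligase adaptor, and Cystm1, a small membrane protein. After subtraction of each group's mean their Pearson r with Pltp over 16 libraries was 0.926, 0.924 and 0.919, and these values describe a choice of the highest among many genes. Neurl2 lies 6062 bases beyond the 3′ end of Pltp on the same strand (chromosome 2, 164830732 to 164833456). Ctsa, on the opposite strand at 164832873 to 164841032, crosses the gap and reaches into the span of both genes. Exon bases shared by Neurl2 and Ctsa were not counted. The part of shared reads in the r of Neurl2 with Pltp was not tested. None of the 3 passed the test between the groups, Impa2 with a log2 fold change of -0.09 ± 0.23, Neurl2 of 0.59 ± 0.23 and Cystm1 of 0.74 ± 0.25 (SE; limma adjusted p = 0.879, 0.135 and 0.0862).

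Scarb1 (ENSMUSG00000037936), the HDL receptor of hepatocytes, lies on chromosome 5 at 125277087 to 125341094, minus strand. Controls ran from 5268 to 7596 normalized counts with a median of 6732, and Cyp7a1-labelled livers from 3804 to 6041 with a median of 4714. In 6 of the 8 Cyp7a1-labelled livers the value was below the lowest control. The other 2, Cyp7a1 5 at 5430.2 and Cyp7a1 36 at 6041, lay within the control range. The log2 fold change was -0.46 ± 0.09 (SE), a fall of 27.1% with a 95% interval of -36.2% to -16.6% (limma adjusted p = 0.00780). The SD of Scarb1 was 0.18 in controls and 0.21 in Cyp7a1-labelled livers on the log2 scale, the narrowest of the 8 genes in controls.

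Most like Scarb1 within the groups were Fetub, the secreted protease inhibitor fetuin B (r = 0.924), Proz, the coagulation cofactor protein Z (0.916), and Mccc2, a subunit of the leucine-degrading enzyme methylcrotonyl-CoA carboxylase (0.914), again over 16 libraries. These genes followed Scarb1 from liver to liver but did not pass the test between the groups. Their log2 fold changes were 0.05 ± 0.13, -0.02 ± 0.08 and -0.02 ± 0.07 (SE; limma adjusted p = 0.889, 0.927 and 0.913).

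The lipid-modifying enzymes Lipc and Lcat did not pass the test in limma. Lipc (chromosome 9, 70798128 to 70952226, minus strand) ran from 2231 to 4041 normalized counts in controls, median 3217, and from 1856 to 2719.7 in Cyp7a1-labelled livers, median 2433. All 8 Cyp7a1-labelled livers lay below the control mean of 3171, but only 2 lay below the lowest control. The log2 fold change of Lipc was -0.39 ± 0.12 (SE), a difference of -23.9% with a 95% interval of -36.2% to -9.28% (limma adjusted p = 0.0611). It did pass on whole reads, with an adjusted p of 0.0494 in edgeR and 0.0149 in DESeq2, and with equal library totals (0.0189) or quantile normalization (0.0373), and also without control 7 (0.0195) or control 13 (0.0319). In the other 19 of 25 alternatives Lipc did not pass. The limma adjusted p was 0.116 without control 16 and 0.149 without control 20 and Cyp7a1 24 together. Its control SD of 0.32 on the log2 scale was above the 0.19 of the Cyp7a1-labelled group, and the difference in spread was not tested.

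Lcat (chromosome 8, 105939551 to 105943382, minus strand) did not differ beyond the spread between livers. It ran from 6902 to 9713 normalized counts in controls, median 8469, and from 6186 to 9835 in the Cyp7a1-labelled livers, median 8711. The difference was 0.08% with a 95% interval of -14.0% to 16.5% (limma adjusted p = 0.997). The sphingosine 1-phosphate carrier Apom (chromosome 17, 35128997 to 35132050, minus strand) ran from 1818 to 3275 in controls, median 1915, and from 1622 to 2623 in Cyp7a1-labelled livers, median 2317. Control 20 was the highest liver for Apom. Its difference was 3.65% with an interval of -12.9% to 23.3% (adjusted p = 0.866).

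Among the genes that set lipoprotein lipase activity, Angptl8 fell and the other 2 did not pass. Angptl8 (ENSMUSG00000047822, chromosome 9, 21835510 to 21837347, plus strand) lies within the span of Dock6 on the opposite strand but shares no exon base with it. Controls ran from 171 to 411 normalized counts with a median of 263, and Cyp7a1-labelled livers from 90.9 to 266 with a median of 157. In 5 of the 8 Cyp7a1-labelled livers the value was below the lowest control, but Cyp7a1 17 at 170.58 and Cyp7a1 26 at 170.64 lay on either side of that control at 170.61. The highest of them, Cyp7a1 28, stood among the controls. The log2 fold change was -0.74 ± 0.21 (SE), a fall of 40.2% with a 95% interval of -56.0% to -18.7% (limma adjusted p = 0.0452). The SD was 0.47 on the log2 scale in both groups, the widest of the 8 genes.

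The call of Angptl8 was close to the threshold and ended when any 1 of 10 libraries was left out. The adjusted p was then 0.0810 without control 12, 0.0755 without control 20, 0.0850 without control 25 and 0.0736 without control 35. It was 0.0691 without Cyp7a1 2, 0.0589 without Cyp7a1 17, 0.0864 without Cyp7a1 19, 0.0679 without Cyp7a1 24, 0.0575 without Cyp7a1 26 and 0.0771 without Cyp7a1 36. With array weights it was 0.0905. The direction was the same in each of these fits. Most like Angptl8 within the groups were Rpusd2, a pseudouridine synthase family gene, Prpf18, a splicing factor, and Nup107, a nuclear pore subunit (r = 0.857, 0.835 and 0.811), with log2 fold changes of -0.10, 0.05 and -0.01, none past the threshold.

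Angptl4 (chromosome 17, 33773750 to 33781830, minus strand) ran from 2536 to 4314 normalized counts in controls, median 3802, and from 3167 to 4580.2 in Cyp7a1-labelled livers, median 3671. The groups covered nearly the same range, and control 20 was the lowest liver. The difference was 3.99% with a 95% interval of -9.71% to 19.8% (limma adjusted p = 0.810).

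Apoc2 (ENSMUSG00000002992, chromosome 7, 19671579 to 19677941, minus strand) was listed at 27.7 to 54.4 normalized counts in controls, median 34.8, and at 23.3 to 44.7 in Cyp7a1-labelled livers, median 35.1. The difference was -5.26% with a 95% interval of -25.0% to 19.6% (limma adjusted p = 0.847). Hepatocytes make and secrete this apolipoprotein, yet it had the lowest level of the 8 genes. Per kb of exon Apoc2 stood at 45.3 ± 10.8 in controls (SD, n = 8), while its cluster neighbour Apoc1 stood at 94731 ± 18956, Apoc4 at 2898 ± 253 and Apoc3, on another chromosome, at 21302 ± 2565. In GENCODE M21, 646 of the 813 exon bases of Apoc2 (79.5%) are also exons of Gm44805, a gene model on the same strand that begins within the first exon of Apoc4 and runs on through Apoc2, and 167 bases belong to Apoc2 alone. Gm44805 was not analysed here, and the annotation and the rule for reads that overlap more than 1 gene are not given. The part of this overlap in the low Apoc2 count was not tested, so the value of Apoc2 is uncertain as a measure of its transcript.

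**Figure D2:**
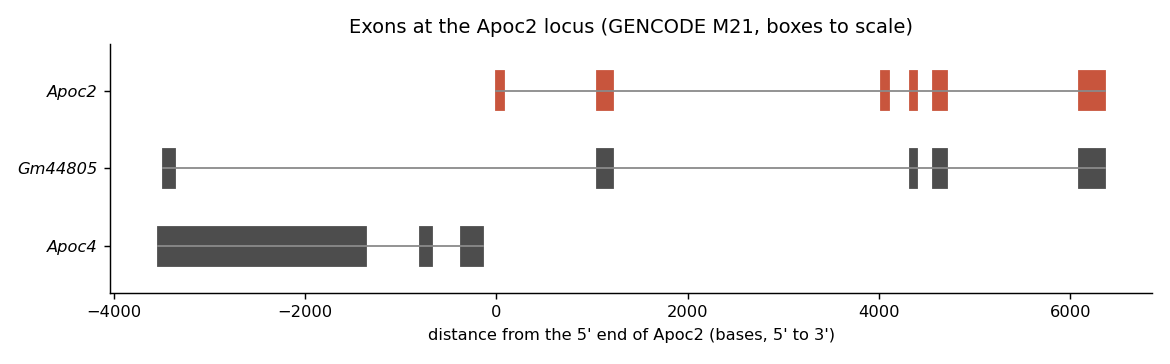
Exons (boxes) and introns (lines) of Apoc2, the overlapping gene model Gm44805 and Apoc4, by distance in bases from the 5′ end of Apoc2, all on the same strand. Gm44805 shares 646 of the 813 exon bases of Apoc2, and 167 bases are Apoc2's own, nearly all in its first exon and the third.

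Levels were compared between genes as normalized counts per kb of the union of annotated exons, which lowers genes with long minor isoforms such as Scarb1 with its union of 8500 bases. In controls Lcat stood highest at 6227 ± 849, followed by Apom at 2150.3 ± 503, Lipc at 1475 ± 317, Angptl4 at 1034 ± 149, Scarb1 at 779 ± 95.2, Pltp at 689 ± 227, Angptl8 at 310.5 ± 100.7 and Apoc2 at 45.3 ± 10.8 (SD, n = 8). The ranges over livers overlapped between Apom and Lipc, Lipc and Angptl4, Angptl4 and Scarb1, Scarb1 and Pltp, and Pltp and Angptl8, so those neighbours were not separated. In the Cyp7a1-labelled livers Pltp, at 1459 ± 425 per kb, had a range of 813 to 2237 that lay below that of Lcat and overlapped those of Apom, Lipc and Angptl4, and Scarb1 stood at 569 ± 83.5. Angptl8 was at 185 ± 61.8 per kb there.

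**Figure D3:**
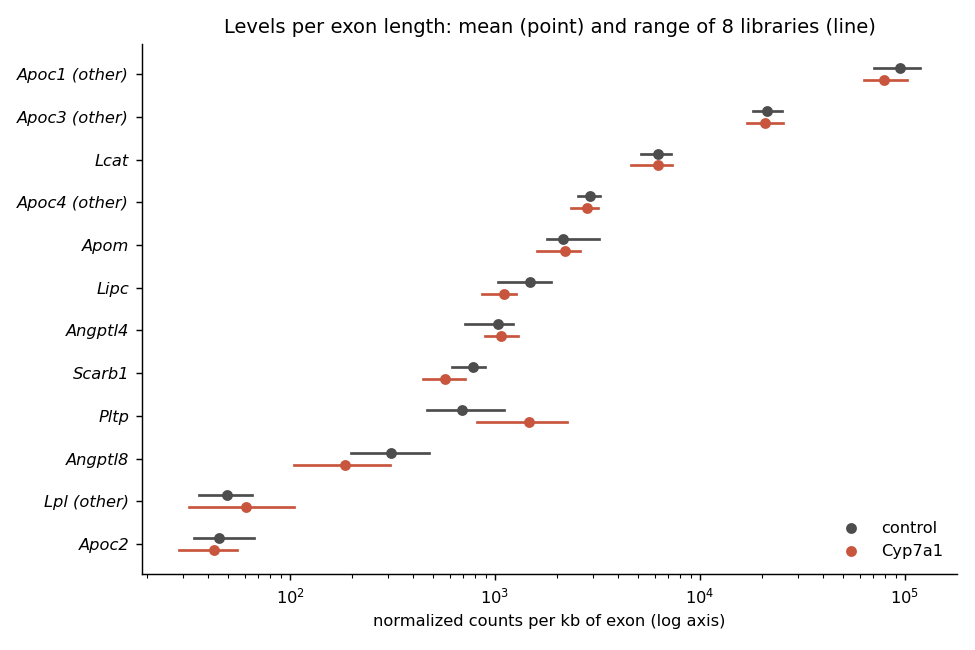
Normalized counts per kb of annotated exon (log axis) for the 8 genes and for Apoc1, Apoc3, Apoc4 and Lpl (marked other), as the mean (point) and range (line) of 8 libraries per group. Lcat is the highest of the 8 genes and Apoc2, at 45.3 in controls, the lowest. Lpl is close to Apoc2 only per kb, at 49.1 over a union of 10478 exon bases against 813. Before division by length the control means were 515 for Lpl and 36.8 for Apoc2.

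Levels of the 8 genes were also compared with each other from liver to liver within each group, over 28 pairs in 2 groups of 8 libraries, 56 relations in all. Of these, 20 had an unadjusted exact permutation p under 0.05 for Pearson's r and 3 passed after Benjamini-Hochberg adjustment. The share among pairs of other genes was not computed, so these counts do not set the 8 genes apart from other genes. In controls Pltp and Lipc ran in opposite directions, with r = -0.947 (two-sided exact permutation p = 0.000843, adjusted p = 0.0236) and Spearman's rho = -0.976 (exact permutation p = 0.000397, adjusted p = 0.0111). Without the 2 libraries farthest from the median of Pltp, r was -0.822. Controls 7 and 13 combined the highest Pltp with the lowest Lipc, and controls 20 and 25 the reverse. In the Cyp7a1-labelled livers r was -0.226 (exact permutation p = 0.586, adjusted p = 0.683) and rho -0.310 (exact permutation p = 0.462), with r = -0.699 without the 2 farthest libraries, and the difference between the groups was not tested.

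Also in controls, Lcat and Lipc ran in parallel, with r = 0.934 (exact permutation p = 0.00216, adjusted p = 0.0403) and rho = 0.810 (exact permutation p = 0.0218, adjusted p = 0.174), and r was 0.801 without the 2 farthest libraries. With equal library totals r was 0.839 (adjusted p = 0.196) and with quantile normalization 0.732 (0.176), so that call rests on the deposited scaling. In the Cyp7a1-labelled livers the same pair had r = 0.855 (exact permutation p = 0.00789, adjusted p = 0.0576) and rho = 0.690 (exact permutation p = 0.0694), and it rested on the 2 farthest libraries, without which r was 0.263. There Lipc and Apoc2 had r = 0.964 (exact permutation p = 0.000273, adjusted p = 0.0153) and rho = 0.952 (exact permutation p = 0.00114, adjusted p = 0.0213), with r = 0.939 without the 2 farthest libraries. Apoc2 ran from only 23.3 to 44.7 normalized counts in that group. Given its exon overlap with Gm44805, its count is uncertain as a measure of its transcript, and so is this relation. Scarb1 and Lcat had r = 0.815 in controls and 0.831 in the Cyp7a1-labelled livers (exact permutation p = 0.0152 and 0.00925, adjusted p = 0.0699 and 0.0576), with rho of 0.738 and 0.762 (exact permutation p = 0.0458 and 0.0368) and r = 0.674 and 0.656 without the 2 farthest libraries. Scarb1 and Apom, in the Cyp7a1-labelled livers, passed by rank alone, with rho = 0.976 (exact permutation p = 0.000397, adjusted p = 0.0111) and r = 0.845 (exact permutation p = 0.00613, adjusted p = 0.0576), and r was 0.913 without the 2 farthest. Libraries share their scaling across genes. With equal totals and quantile normalization, settings chosen after seeing the data, Pltp and Lipc in controls had r = -0.950 and -0.956 (exact permutation, adjusted p = 0.0208 and 0.0132). Lipc and Apoc2 in the Cyp7a1-labelled livers had r = 0.938 and 0.973 in the same settings (exact permutation, adjusted p = 0.0208 and 0.00972). The part of shared scaling in these relations was not tested.

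**Figure D4:**
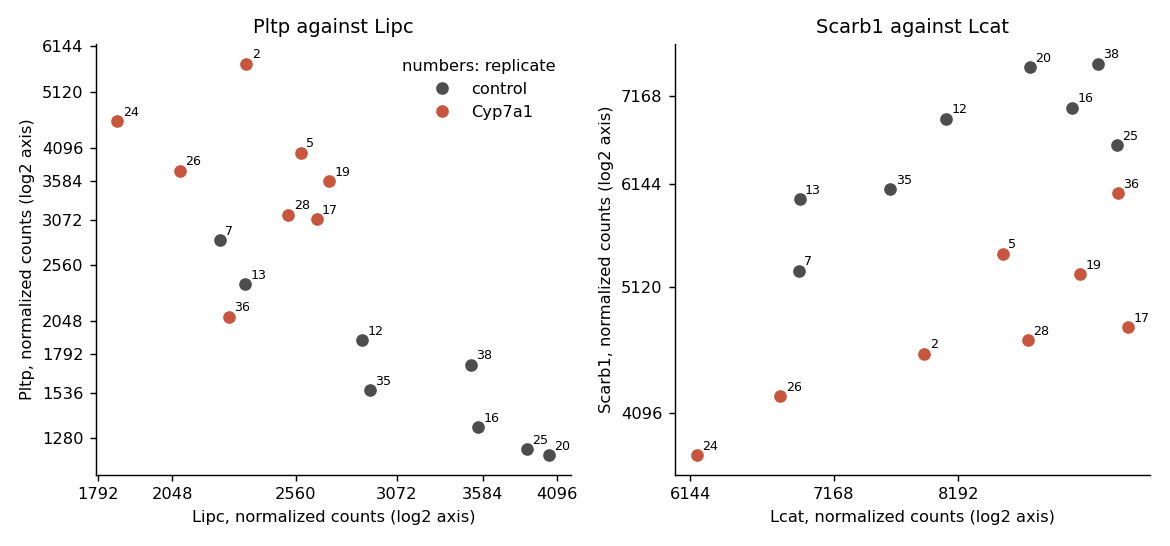
Pltp against Lipc and Scarb1 against Lcat in normalized counts (log2 axes), one point per liver library, coloured by group and numbered by replicate. In controls higher Pltp goes with lower Lipc (r = -0.947), and in the right panel the Cyp7a1-labelled livers lie at lower Scarb1 than controls of like Lcat, with Cyp7a1 24 lowest in both.

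Other genes of these pathways were taken from 5 lists that hold 62 genes, of which 60 were tested. Of the 60, 2 were higher and 6 lower, against 6.12% of all genes called, and their median log2 fold change was 0.0075. The apolipoproteins and other proteins of HDL had 0 higher and 1 lower of 12, with a median of 0.02. Clu (apolipoprotein J), a chaperone carried on HDL, went from 40379 ± 2959 to 34259 ± 1925 normalized counts (SD, n = 8 each), a log2 fold change of -0.24 ± 0.06 (SE, limma adjusted p = 0.0289). Its call ended without control 16, 25 or 38 or Cyp7a1 19, 26 or 28 (adjusted p 0.0516 to 0.0574). Apoa1, the main HDL protein, had a log2 fold change of 0.10 ± 0.14 (adjusted p = 0.756).

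None of 9 genes of HDL assembly, export and uptake passed in limma, where 2 had an unadjusted p under 0.05. Abca1, the exporter that starts HDL formation, had a log2 fold change of -0.24 ± 0.07 (adjusted p = 0.0635), which passed in DESeq2 (0.0321), with equal totals (0.0302), without control 7 (0.0316) and without Cyp7a1 5 (0.0330). The procollagen and proapolipoprotein A-I protease Bmp1 had 0.31 ± 0.12 (adjusted p = 0.154). Among 14 genes of lipoprotein lipase, its maturation and its regulators, 0 were higher and 1 lower, with a median of -0.07. Pcsk6, a proprotein convertase, went from 4851 ± 378 to 3966 ± 196 normalized counts with no overlap between the groups, a log2 fold change of -0.29 ± 0.05 (SE, limma adjusted p = 0.00296). Lpl, lipoprotein lipase itself, was at 515 ± 121 and 639.5 ± 279 (log2 fold change 0.22 ± 0.23, adjusted p = 0.646).

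Of 18 transcription regulators named in the field as acting on the 8 genes, 2 were higher and 3 lower, with a median of -0.05. Among all genes 3.07% were higher and 3.05% lower. Nr0b2 (SHP), Srebf1, Srebf2 and Ppargc1a had log2 fold changes of -1.95 ± 0.21, -0.98 ± 0.10, 0.55 ± 0.09 and 0.69 ± 0.11 (SE; limma adjusted p = 4.25e-05, 3.23e-05, 0.00225 and 0.00175). Mlxipl (ChREBP), a carbohydrate-responsive factor known to act on Angptl8 and named after its values were seen, was at -0.68 ± 0.15 (adjusted p = 0.0118). The bile acid receptor Nr1h4 (FXR) and the fatty acid receptor Ppara did not pass, at 0.14 ± 0.07 and -0.09 ± 0.10 (adjusted p = 0.236 and 0.681).

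**Figure D5:**
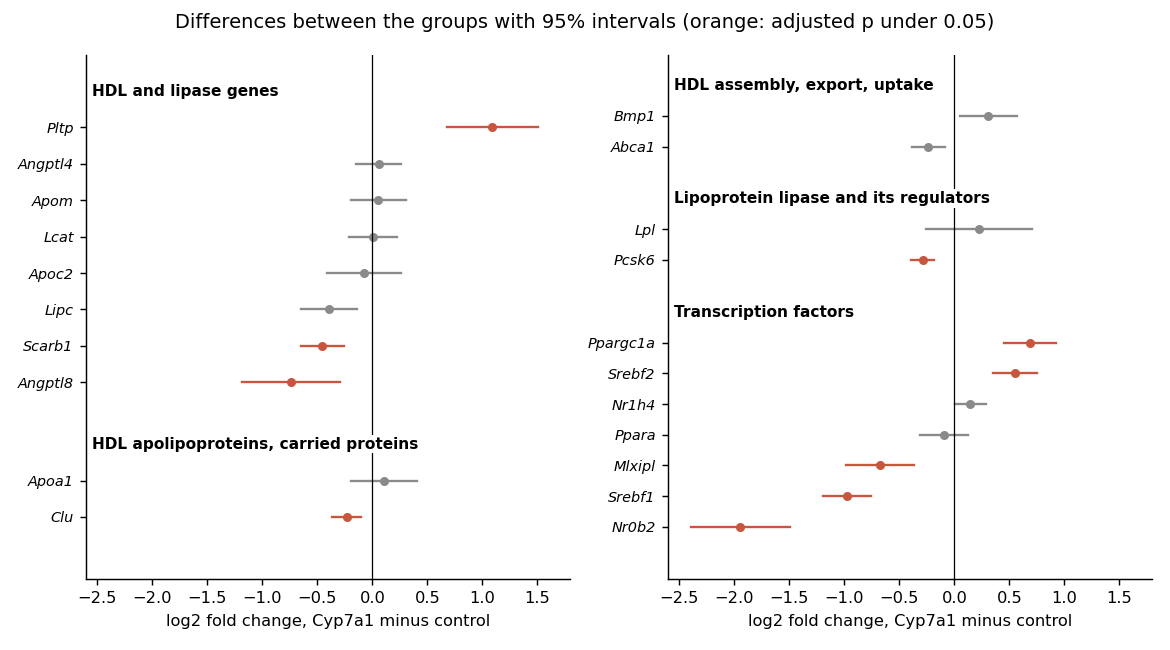
Log2 fold change (point) and 95% interval (line) of the 8 genes and of the pathway genes and regulators named in the text, Cyp7a1-labelled minus control, in limma over 16 libraries, with genes past the adjusted threshold of 0.05 in orange. Pltp at 1.09 is the highest value shown, and Nr0b2 at -1.95 the lowest.

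Other cell types of liver also make some of these transcripts, Pltp among them, so their markers were counted. None of 11 Kupffer cell, 10 recruited macrophage, 11 sinusoidal endothelial and 12 stellate cell and fibroblast markers passed in limma, where 0, 0, 2 and 0 had an unadjusted p under 0.05. Their median log2 fold changes were 0.03, -0.01, -0.05 and 0.05. The summed Kupffer markers ran from 8844 to 15397 in controls and from 7593 to 27556 in the Cyp7a1-labelled livers, the recruited macrophage markers from 2224 to 7341 and 2825 to 7059, and the stellate markers from 11785 to 22377 and 13733 to 21186. The endothelial sums ran from 13693 to 17249.5 and 12049 to 17122. Of 6 cholangiocyte markers 1, Krt23, was lower, with sums of 1105 to 3837 and 1311 to 3952. Of the adipocyte markers 2 were analysed here, Cfd and Adrb3, and 0 passed (sums 949 to 5152 and 1193 to 2797). No tested marker was at 0 in any library. The part of other cell types in the results for Pltp, Scarb1 and Angptl8 was not tested.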

How the data were processed

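For 12618 genes and 16 libraries, the authors deposited a normalized signal, gene counts scaled by library. The submitters' processing notes name mm10 and, in no stated role, STAR 2.7.11a, Trim Galore 0.6.10, featureCounts, Subread, DESeq2 and R 3.6.3. The annotation, the strand setting and the choice of genes are not given. Ccne2 was left out because a cell held text.

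A step worth 1 read gave whole reads for 99.94% to 99.99% of a library's values (tolerance 0.05 reads), which recovered 13.8 to 27.4 M reads. In 10 libraries the smallest value was above 1 read, so the step was fitted to all low values.

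Groups were compared on log2(value + 1) by a two-sided limma 3.58.1 trend fit (R 4.3.3), adjusted by Benjamini-Hochberg across 12617 genes, called below 0.05. Fold changes are on that scale, which understates low genes. The minimum mean of 10 removed no gene. The fit was repeated with array weights, equal totals, quantile normalization, a pseudocount of 8, a minimum mean of 50, no filter, edgeR 4.0.16 and DESeq2 1.42.0 on recovered reads, a 1.5-fold minimum and leaving out each library. Steps were tested on simulated data.

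The 8 genes, the lists and the tests were chosen with earlier results of these data known. Named from each list are up to 4 genes past the threshold with the smallest p, or 2 where none passed, and some genes of the lists are not reported here. Named as most like a gene are the 3 with the highest r among genes with a mean of at least 50, without predicted genes and pseudogenes.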

Additional observations from a re-analysis of the deposited data

Results flagged for a closer look

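By Dixon's 95% criterion, the highest and lowest library were set against the rest in 38 groups of libraries (the 8 genes, the genes named from the lists, Cyp7a1 and depth). It was met in 2 groups, where chance gives 1.9, about 1 in 20. Neither was one of the 8 genes. Srebf1 stood at 17100 normalized counts (17099.6) in control 20, and the other controls lay between 9089 and 12036. Pcsk6 stood at 3544 in Cyp7a1 36, below the 3890.1 to 4132 of the other Cyp7a1-labelled livers.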

How the results depend on the processing

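Pltp and Scarb1 kept direction and call under each of 25 alternatives, of which the fit with no filter repeats the main fit. Their log2 fold changes were 0.97 to 1.20 and -0.50 to -0.38. Angptl8 kept its direction (-0.85 to -0.60) but lost its call with array weights (-0.60), with control 20 and Cyp7a1 24 both left out, an alternative added once values were seen (-0.62, adjusted p = 0.101), and without any 1 of 10 libraries (-0.85 to -0.63 over all single libraries). Lipc was called with quantile normalization (-0.39), equal totals (-0.40), edgeR (-0.41) and DESeq2 (-0.41), and had -0.46 to -0.34 with single libraries left out. Without the pair Lipc was at -0.29 and not called (limma adjusted p = 0.149). Lcat changed sign with equal totals (-0.0061) and with 9 single libraries left out (-0.037 to 0.062 over all single libraries). Apoc2 changed sign without control 20 (0.0053, with -0.13 to 0.0053 over all single libraries) and without the pair (0.0804). Angptl4 changed sign without control 20 (-0.017, with -0.017 to 0.092 over all single libraries). The cause of these changes was not tested. Of all genes, 387 were higher and 385 lower, 111 and 83 with a change of at least 1.5-fold, 548 and 573 in DESeq2, 263 and 372 (41.4% higher) with equal totals, and 230 to 399 and 245 to 414 with single libraries left out, lowest without Cyp7a1 28 (256 lower without control 16). Of the pathway genes, 2 were higher, 5 in DESeq2 and 2 to 4 with single libraries left out (4 without Cyp7a1 36). Clu (-0.20, adjusted p = 0.0675) lost its call without the pair. The correlation of Lcat with Lipc in controls lost its call with equal totals (0.839) and quantile normalization (0.732), settings chosen after seeing the data. Apoc2 has no value at a minimum mean of 50. No paired analysis was possible because the groups share no replicate number.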
